A study of Mus musculus with 4 samples.

Results

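The genes described here are Rgs1, Rgs2, Rgs4, Rgs5, Rgs16 and Rgs20, 6 of the 32285 genes counted, and 6 of the 21 mouse genes whose symbol is Rgs followed by a number. They were chosen by name, with earlier results of these data known, and are described in barcodes of at least 1000 UMIs (unique transcript molecules), sorted into cell classes by marker genes. The levels are a description. They come from 2 single-cell libraries of cultured pancreatic islets from C57BL/6 mice, both exposed to TCDD, the prototype dioxin and a ligand of the aryl hydrocarbon receptor (AhR). One library came from Malat1-/- islets (Malat1-null), which lack the long non-coding RNA Malat1, and the other from wild-type islets. Beta cells are the labelled cell type, whereas the suspensions were made from whole islets and held other cells too. TCDD dose, exposure time, and the age, sex and number of the mice are not given in the labels, and the 2 libraries of DMSO-treated islets were not analysed here.

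RGS proteins switch off signalling by G-protein-coupled receptors: they speed up the hydrolysis of GTP by G alpha subunits of the Gi and Gq families, so that the signal ends sooner. In mouse beta cells Rgs4 is known to restrain the insulin release that acetylcholine drives through the M3 muscarinic receptor. Rgs2 acts mainly on Gq, Rgs1 dampens chemokine receptors in lymphocytes, Rgs5 is a textbook marker of pericytes, Rgs16 acts on Gi and Gq, and Rgs20 acts on Gz. Rgs4, Rgs5 and Rgs16 proteins are also degraded through the N-degron pathway in an oxygen-dependent way.

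With 1 library per genotype there were no replicates. No difference was tested, and all intervals are 95% and cover counting error only. Levels are given in CPM, the usual per-depth unit, from the UMIs of a gene and of all genes summed over the cells of a class and library and scaled by TMM factors. To be measured a gene needed 50 CPM in either library and 50 UMIs in the sum of both. It was called higher or lower in Malat1-null cells when its ratio of CPM passed 2-fold and the whole interval of that ratio passed 1.5-fold. Classes were compared where each library held at least 20 cells of them.

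The Malat1-null library held 134950186 UMIs and 3191 kept barcodes, and the wild-type library held 81872519 UMIs and 2143 kept barcodes. Only 1 barcode was shared between them. Malat1 stood at 0.266 CPM in Malat1-null beta-like cells, against 9693 CPM in wild-type ones. Beta-like cells numbered 1809 and 919 in the Malat1-null and wild-type libraries, with a median of 47271 and 60983 UMIs. All 10 beta markers were detected in both. Barcodes just inside the limit of 1000 UMIs (1000 to 1199) numbered 213 in the Malat1-null library, with 7 UMIs of the 6 genes, and 90 in the wild-type library, with 1. Barcodes just outside it (800 to 999) numbered 743 in the Malat1-null library, with 37 such UMIs and none of Rgs5, and 130 in the wild-type library, with 27, of which 19 were Rgs5.

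All 6 genes lie on mouse chromosome 1 (GRCm38, which is mm10) and code for protein. Rgs2 (ENSMUSG00000026360) spans bases 143999338 to 144004161 on the minus strand and Rgs1 (ENSMUSG00000026358) spans 144242296 to 144249242, also on the minus strand. Rgs16 (ENSMUSG00000026475) spans 153740349 to 153745468 on the plus strand. Rgs5 (ENSMUSG00000026678), at 169655501 to 169695813 on the plus strand, and Rgs4 (ENSMUSG00000038530), at 169741477 to 169747642 on the minus strand, are nearest neighbours, 45.7 kb apart. Rgs20 (ENSMUSG00000002459), at 4909576 to 5070285 on the minus strand, overlaps Atp6v1h. No other gene shares exon bases with any of the 6 on the same strand.

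The promoters below were chosen for display with the levels of the genes known. Rgs4 and Rgs2 were both lower in Malat1-null beta-like cells, Rgs2 at a level too low for a call. Rgs16 was near its wild-type level there, and Rgs5 was nearly absent from beta-like cells although it is the neighbour of Rgs4. RefSeq (GRCm38.p6) gave 4 of the 6 promoters, each from 250 bases before to 50 bases after the start of the gene, 5′ to 3′. Capitals mark TGACG, the core of the cAMP response element (CRE), and GCGTG, the core bound by AhR, on either strand. These motifs do not overlap in the promoters shown.
Rgs4, chr1:169747593-169747892, minus strand: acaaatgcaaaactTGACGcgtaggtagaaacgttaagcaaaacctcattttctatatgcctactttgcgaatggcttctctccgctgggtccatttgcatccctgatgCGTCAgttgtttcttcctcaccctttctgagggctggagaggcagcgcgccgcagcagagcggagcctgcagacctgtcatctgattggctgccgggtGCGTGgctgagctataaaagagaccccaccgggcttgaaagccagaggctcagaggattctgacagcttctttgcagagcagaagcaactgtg
Rgs2, chr1:144004100-144004399, minus strand: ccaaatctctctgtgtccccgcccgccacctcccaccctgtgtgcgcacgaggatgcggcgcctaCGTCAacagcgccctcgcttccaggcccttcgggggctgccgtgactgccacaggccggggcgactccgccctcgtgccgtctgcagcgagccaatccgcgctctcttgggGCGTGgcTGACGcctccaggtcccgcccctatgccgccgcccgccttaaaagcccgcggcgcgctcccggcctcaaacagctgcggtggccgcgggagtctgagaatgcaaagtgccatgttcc
Rgs16, chr1:153740103-153740402, plus strand: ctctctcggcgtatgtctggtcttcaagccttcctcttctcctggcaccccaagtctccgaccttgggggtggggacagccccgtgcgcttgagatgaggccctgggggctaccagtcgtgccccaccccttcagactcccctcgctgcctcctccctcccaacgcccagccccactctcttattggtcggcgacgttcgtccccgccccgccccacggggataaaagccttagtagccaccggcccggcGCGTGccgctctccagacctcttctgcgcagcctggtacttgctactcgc
Rgs5, chr1:169655251-169655550, plus strand: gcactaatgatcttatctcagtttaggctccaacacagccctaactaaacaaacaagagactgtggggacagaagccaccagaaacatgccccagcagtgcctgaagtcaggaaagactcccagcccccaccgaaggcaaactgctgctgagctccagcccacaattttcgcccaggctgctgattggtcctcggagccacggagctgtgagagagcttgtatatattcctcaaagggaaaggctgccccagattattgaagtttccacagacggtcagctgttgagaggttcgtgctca
The Rgs4 and Rgs2 promoters each held 2 CRE cores and 1 AhR core, that of Rgs16 held 0 and 1, and that of Rgs5 held neither. Of 27025 mouse promoters of the same length, 21.0% held TGACG at least once and 5.20% at least 2 times, and 32.5% held GCGTG. The Rgs4 promoter also held TATAAA, which 14.2% of promoters hold. TGACGTCA and CACGTG were in none of the 4. A match is a run of letters and was not tested as a binding site, and no link between these motifs and the levels was tested.

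Each gene had its own pattern over cell classes. Rgs4 was found mostly in hormone cells, but also stood at 78.7 CPM in wild-type mesenchymal-like cells. Beta-like cells, with the most cells, held 85.5% of its UMIs among Malat1-null cells and 94.1% among wild-type cells. Rgs16 and Rgs2 also gave more UMIs in beta-like cells, the most numerous class, than in any other, but stood at their highest levels in T or NK-like cells. Rgs1 belonged to macrophage-like and T or NK-like cells, Rgs5 to endothelial-like, mesenchymal-like and ductal-like cells, and Rgs20 gave few UMIs anywhere.

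**Figure D1:**
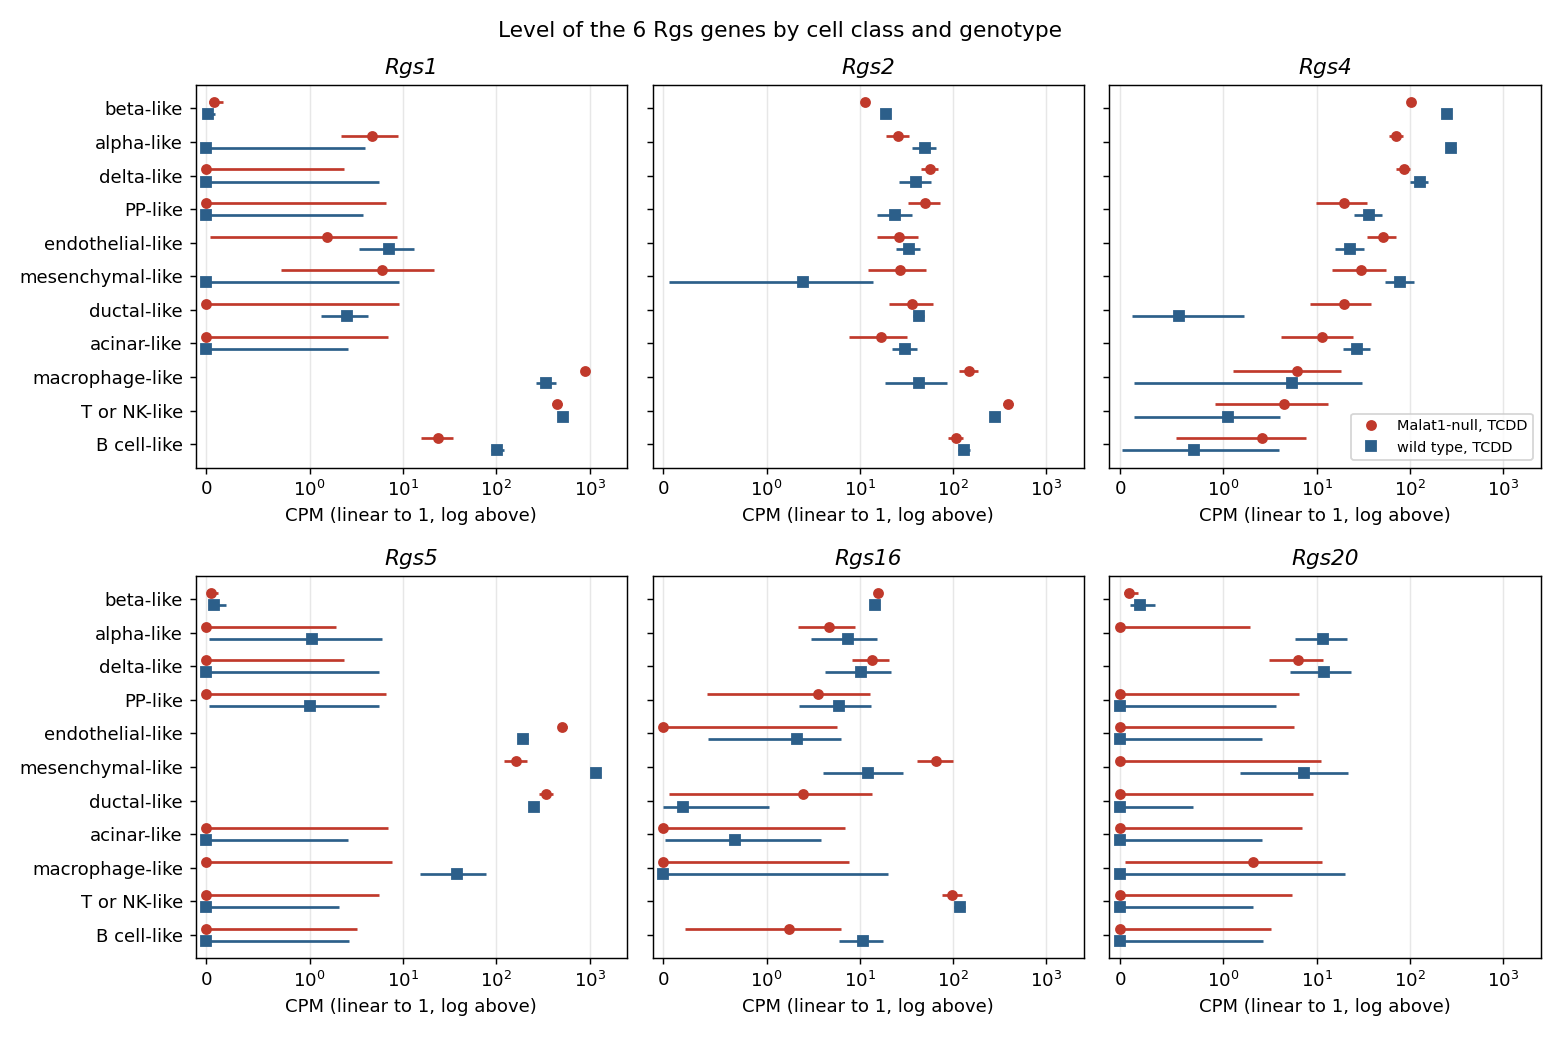
Level of each gene in CPM (axis linear to 1 and logarithmic above) in 11 named cell classes, Malat1-null above wild type, with 95% counting intervals. Rgs4 stood at 102 CPM in Malat1-null and 249 CPM in wild-type beta-like cells, while Rgs1 and Rgs5 were below 0.1 CPM there.

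Rgs4 was lower in Malat1-null beta-like cells. It stood at 102 CPM (interval 99.9 to 104) in Malat1-null and 249 CPM (245 to 253) in wild-type cells, from 8963 and 15299 UMIs, which is 2.44-fold lower (2.38 to 2.51). It was the one gene of the 6 that reached 50 CPM in beta-like cells. There 1.22% of 1637 measured genes were called lower and 0.367% higher, and Rgs4 had the rank 12 from the lowest ratio.

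The difference ran through the population of cells. The median beta-like cell held 3 Rgs4 UMIs in Malat1-null and 11 in wild type, and the highest cell held 49 and 177. At least 1 UMI was found in 74.7% of Malat1-null cells and 90.5% of wild-type cells. T or NK-like cells, which should lack the gene, had a UMI in 1.90% of Malat1-null and 0.678% of wild-type cells, at medians of 3442 and 5107 UMIs per cell. With each beta-like cell thinned to 5000 UMIs, 31.1% of 1733 Malat1-null cells and 57.4% of 890 wild-type cells had an Rgs4 UMI. At least 3 were found in 3.98% of Malat1-null and 19.0% of wild-type cells.

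**Figure D2:**
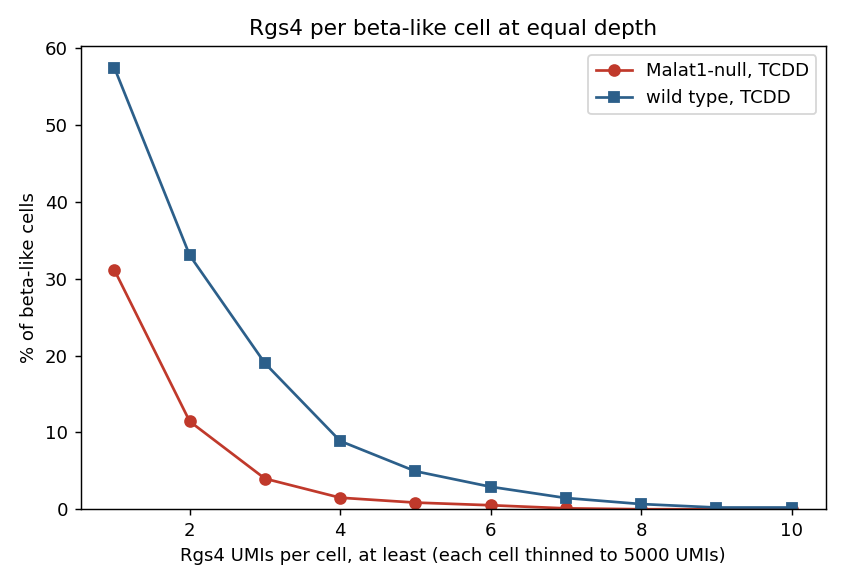
Share of beta-like cells (%) with at least the given number of Rgs4 UMIs after thinning every cell to 5000 UMIs, Malat1-null (1733 cells) and wild type (890 cells). The Malat1-null curve lies below the wild-type one, with 31.1% against 57.4% of cells at 1 UMI or more.

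Beta-like cells fell into clusters that were formed without the Rgs genes, and Rgs4 was lower in Malat1-null cells in all 7 that held at least 20 cells of each library. The fold lower was smallest, 1.78 (1.64 to 1.92), in the cluster led by Gm26917, Mlxipl and Snhg11. It was greatest, 4.09 (3.47 to 4.84), in the cluster led by the heat-shock genes Hspa1a, Hspa1b and Hspb1, with 48.3 CPM in 63 Malat1-null cells and 198 CPM in 116 wild-type cells. Among wild-type clusters the highest level was 377 CPM, in the cluster led by Gem, Nfkbia and Cxcl10, where Malat1-null cells had 148 CPM.

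The libraries differed in how they filled these clusters. The cluster led by Pdyn, Serpina7 and Crybb3 held 10.4% of Malat1-null and 45.7% of wild-type beta-like cells. In it Rgs4 stood at 158 CPM in Malat1-null and 286 CPM in wild type, 1.81-fold lower (1.71 to 1.92). Without that cluster the level was 96.1 CPM in Malat1-null and 215 CPM in wild type, and Rgs4 was still called lower. One beta-like cluster, led by Gm26737, Dapl1 and Cox6a2, had 0 Rgs4 UMIs in 26 Malat1-null and 9 wild-type cells, which allows up to 2.22 CPM over 1350235 UMIs.

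**Figure D3:**
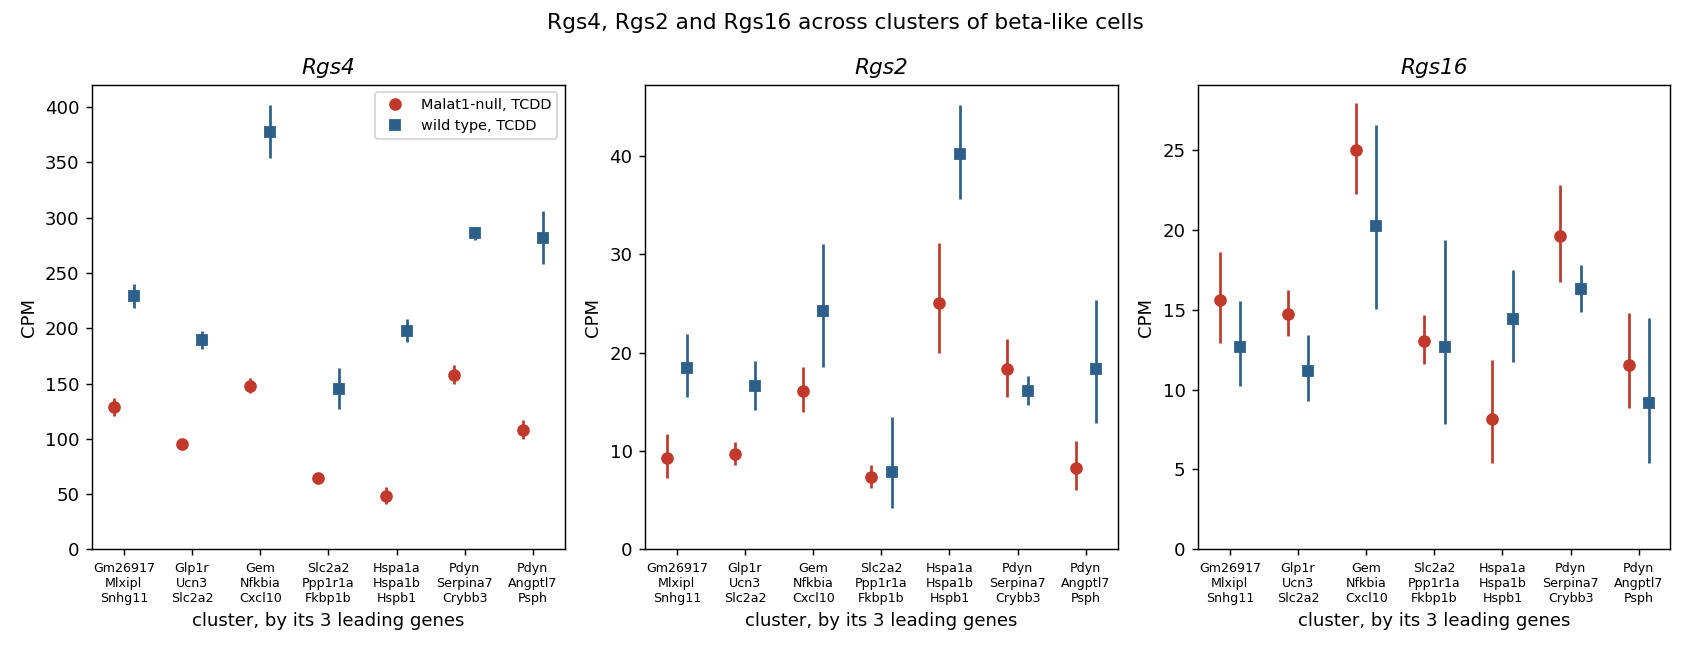
Rgs4, Rgs2 and Rgs16 in CPM in the 7 clusters of beta-like cells with at least 20 cells of each library, Malat1-null left of wild type, with 95% counting intervals. Rgs4 is lower in Malat1-null cells in every cluster shown, Rgs2 in 5 of 7 beyond its interval and Rgs16 in 1 of 7.

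Rgs4 was also lower in Malat1-null alpha-like cells, the glucagon-producing cells. It stood at 71.0 CPM (59.6 to 84.0) in 91 Malat1-null cells and 273 CPM (241 to 309) in 35 wild-type cells, 3.85-fold lower (3.11 to 4.77), and was the 1 gene of the 6 that was measured. Of all measured genes 1.69% were called lower there and 0.807% higher. Different clusters held most of the class in the 2 libraries. One held 68.1% of the Malat1-null cells and 3 wild-type cells, with Rgs4 at 99.2 CPM in Malat1-null and 131 CPM in wild type. Another held 6 Malat1-null cells and 80.0% of the wild-type cells, with 54.7 CPM in Malat1-null and 337 CPM in wild type. The third, led by Ghrl, Gcg and Ppy, had 37.6 CPM in 23 Malat1-null cells and 50.4 CPM in 4 wild-type cells. Each cluster held 6 or fewer cells of one library, too few to show whether the difference of the class held within clusters. Beta markers summed to 34296 CPM in Malat1-null alpha-like cells (10 of 10 detected) and 4041 CPM in wild-type ones (7 of 10; Mafa, Pdx1 and Ucn3 at 0). PP markers summed to 120662 CPM in Malat1-null (4 of 5 detected, Aqp4 at 0) and 56203 CPM in wild type (5 of 5), and the alpha markers themselves to 136760 CPM in Malat1-null and 210888 CPM in wild type (7 of 7 in both). The part of these in the result was not tested.

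In delta-like cells, which make somatostatin, Rgs4 stood at 85.2 CPM in 60 Malat1-null cells and 126 CPM in 28 wild-type cells, 1.48-fold lower (1.12 to 1.96) and not called. In PP-like cells it stood at 19.4 CPM in 15 Malat1-null cells and 36.1 CPM in 26 wild-type cells, and the class was not compared. Mesenchymal-like cells, also not compared, had 78.7 CPM in 25 wild-type cells. The named immune classes gave 3 UMIs or fewer per library, and T or NK-like cells had 4.47 CPM in Malat1-null and 1.13 CPM in wild type. An unnamed cluster led by the antibody genes Igkc, Jchain and Ighm held 40 UMIs in Malat1-null, 18.8 CPM, and 1 in wild type, 0.773 CPM, with beta markers at 116340.4 CPM in Malat1-null and 771 CPM in wild type. Ductal-like cells had 19.5 CPM in 19 Malat1-null cells and 0.573 CPM in 134 wild-type cells. Among the Malat1-null ones 2 cells held 87.5% of the UMIs, and 84.2% of cells had none. There beta markers summed to 173674 CPM in Malat1-null and 872 CPM in wild type, and their part in the levels was not tested. In endothelial-like cells the direction was not stable. It had 50.7 CPM in Malat1-null and 22.7 CPM in wild type (ratio 2.23, 1.33 to 3.75, not called), but a log2 ratio of -0.46 with doublets kept and 4.77 when classes were set per barcode by markers. In this class 12 Malat1-null and 3 wild-type cells held all the UMIs. RNA in barcodes of 100 UMIs or fewer, taken as free RNA, held Rgs4 at 51.6 CPM in the Malat1-null and 101 CPM in the wild-type library.

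Rgs2, which acts mainly on Gq, was far lower than Rgs4 in beta-like cells but was lower in Malat1-null cells too. It stood at 11.5 CPM (10.8 to 12.2) in Malat1-null and 19.3 CPM (18.2 to 20.4) in wild type, 1.68-fold lower (1.55 to 1.83), below the 50 CPM needed for a call. A UMI was found in 30.5% of Malat1-null and 45.9% of wild-type cells, and in 4.85% and 9.55% of them after thinning to 5000 UMIs. Every class compared held Rgs2 UMIs, so no background share can be given. Free RNA held Rgs2 at 15.3 CPM in the Malat1-null and 25.5 CPM in the wild-type library, above its beta-like levels. The part of free RNA in the beta-like levels and their ratio was not tested. Within clusters the interval of the ratio lay below 1 in 5 of 7 and above 1 in 0. Of these 7 the heat-shock cluster had the highest level, 25.1 CPM in Malat1-null and 40.2 CPM in wild type. The cluster led by Pdyn, Serpina7 and Crybb3 had 18.3 CPM in Malat1-null and 16.1 CPM in wild type, a ratio of 1.13 (0.939 to 1.36).

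Rgs2 stood at its highest in T or NK-like cells, at 387 CPM (342 to 437) in Malat1-null and 279 CPM (255 to 305) in wild type. The ratio of 1.39 (1.19 to 1.62) was not called. Beta markers summed to 22448 CPM in Malat1-null (9 of 10 detected) and 1979 CPM in wild-type T or NK-like cells (7 of 10), and acinar markers to 161 CPM in Malat1-null and 2121 CPM in wild type (8 of 8 in both). Their part in the result was not tested. In the cluster led by the T cell genes Trbc2, Cd3g and Ltb the level was 498 CPM in Malat1-null and 367 CPM in wild type, and in the one led by Ccl5, Trbc2 and Ms4a4b it was 174 CPM in Malat1-null and 149 CPM in wild type. B cell-like cells had 106 CPM in Malat1-null and 131 CPM in wild type, with a ratio of 0.813 (0.641 to 1.03). Rgs2 was thus higher in T or NK-like than in B cell-like cells in both libraries. Delta-like cells had 55.9 CPM in Malat1-null and 40.1 CPM in wild type (ratio 1.39, 0.897 to 2.23). Alpha-like cells had 25.6 CPM in Malat1-null and 49.8 CPM in wild type (1.95-fold lower, 1.28 to 2.97), where 3 cells held 70.2% of the wild-type UMIs. Macrophage-like cells had 148 CPM in Malat1-null and 43.6 CPM in wild type, in 41 and 14 cells, and the class was not compared. Beta markers summed there to 166662 CPM in Malat1-null and 1246 CPM in wild type, and their part in the levels was not tested.

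Rgs16, which acts on Gi and Gq, was near its wild-type level in Malat1-null beta-like cells, unlike Rgs4 and Rgs2. It stood at 15.7 CPM (14.9 to 16.6) in Malat1-null and 14.5 CPM (13.5 to 15.5) in wild type, a ratio of 1.09 (0.997 to 1.18) whose direction turned without TMM scaling. A UMI was found in 39.6% of Malat1-null and 40.9% of wild-type cells, against 0.870% and 1.88% of B cell-like cells, whose median depth was 4085 and 6290 UMIs. Per depth the B cell-like levels were 1.74 CPM in Malat1-null and 10.7 CPM in wild type, where the highest cell held 11 of 15 UMIs. Of the 7 beta-like clusters the one led by Gem, Nfkbia and Cxcl10 had the highest level, 24.98 CPM in Malat1-null and 20.2 CPM in wild type. The heat-shock cluster was the 1 cluster whose interval lay below 1, with 8.16 CPM in Malat1-null and 14.4 CPM in wild type, and in 2 clusters it lay above 1. Rgs16 was highest in T or NK-like cells, with 98.3 CPM (76.0 to 125) in Malat1-null and 118 CPM (102 to 135) in wild type, a ratio of 0.836 (0.624 to 1.11), or a log2 ratio of -0.90 among cells of at least 5000 UMIs. In mesenchymal-like cells it stood at 66.0 CPM in Malat1-null, where 3 of 17 cells held all UMIs, and 12.3 CPM in wild type, where 2 of 25 cells did.

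Rgs1, the lymphocyte regulator of chemokine signalling, was an immune gene in these islets. Macrophage-like cells had 899 CPM (816 to 987) in Malat1-null and 343 CPM (264 to 439) in wild type, but with 41 and 14 cells the class was not compared. Beta markers summed there to 166662 CPM in Malat1-null and 1246 CPM in wild type, and B cell markers to 2633 CPM in Malat1-null and 6.17 CPM in wild type. Macrophage markers summed to 6487 CPM in Malat1-null and 4571 CPM in wild type. The part of these in the levels was not tested. T or NK-like cells had 448 CPM (399 to 502) in Malat1-null and 516 CPM (483 to 550) in wild type, a ratio of 0.869 (0.760 to 0.991). This log2 ratio of -0.20 was -0.99 among cells of at least 5000 UMIs and 0.17 when classes were set per barcode by markers. Among 3 members measured in that class (Rgs1, Rgs2 and Rgs16) none was called, where 1.23% of genes were called higher and 1.27% lower. The level was higher in the cluster led by Trbc2, Cd3g and Ltb, at 602 CPM in Malat1-null and 742 CPM in wild type, than in the one led by Ccl5, Trbc2 and Ms4a4b, at 152 CPM in Malat1-null and 184 CPM in wild type. At least 1 Rgs1 UMI was found in 55.7% of Malat1-null and 63.4% of wild-type T or NK-like cells, against 0.332% and 0.109% of beta-like cells, whose median depth was 47271 and 60983 UMIs.

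Rgs1 was lower in Malat1-null B cell-like cells, at 23.5 CPM (15.5 to 34.3) in 230 cells, against 103 CPM (86.9 to 121) in 160 wild-type cells. This was 4.37-fold lower (2.89 to 6.87), and 1 of the 2 measured members was called where 1.32% of genes were called lower and 0.545% higher. Few cells carried it: 13 of 230 Malat1-null cells and 23 of 160 wild-type cells had a UMI, and the 3 highest cells held 55.6% of the UMIs in Malat1-null and 45.1% in wild type. Median depth was 4085 UMIs in Malat1-null and 6290 in wild type. With cells thinned to 5000 UMIs, 7.06% of 85 Malat1-null and 11.9% of 126 wild-type cells had an Rgs1 UMI. B cell markers summed to 8797 CPM in Malat1-null and 9336 CPM in wild type (7 of 7 detected in both). Beta markers summed to 20720 CPM in Malat1-null (10 of 10 detected) and 1466 CPM in wild type (5 of 10, with Slc30a8, Nkx6-1, Pdx1, Ucn3 and Slc2a2 at 0). Acinar markers summed to 269 CPM in Malat1-null and 1661 CPM in wild type (8 of 8 in both). The unnamed cluster led by Igkc, Jchain and Ighm had Rgs1 at 16.9 CPM in 77 Malat1-null cells and 81.2 CPM in 35 wild-type cells. The part of these values in the result was not tested.

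Rgs5, the pericyte marker, was found in endothelial-like, mesenchymal-like and ductal-like cells and was nearly absent from hormone cells, with 0.0455 CPM in Malat1-null and 0.0815 CPM in wild-type beta-like cells. Endothelial-like cells held the most of its UMIs in Malat1-null, 61.6%, and ductal-like cells in wild type, 63.1%. Endothelial-like cells had 510.2 CPM (457 to 568) in 38 Malat1-null cells and 194 CPM (172 to 219) in 87 wild-type cells. The ratio of 2.63 (2.23 to 3.09) was called higher, 1 of 2 measured members where 2.37% of genes were called higher and 2.47% lower. The 4 highest Malat1-null cells held 45.2% of the UMIs and the 9 highest wild-type cells 83.6%. B cell markers summed to 1553 CPM in Malat1-null and 2.85 CPM in wild type, and beta markers to 8483 CPM and 23734 CPM. The part of these in the result was not tested.

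The clusters of this class differed in level and were filled differently in the 2 libraries. The cluster led by Mgp, Igfbp5 and Esm1 held 19 of 38 Malat1-null cells and 6 of 87 wild-type cells. In it Rgs5 stood at 683 CPM in Malat1-null and 718 CPM in wild type. The cluster led by Cyp1a1, Esm1 and Kdr had 116 CPM in 19 Malat1-null cells and 125 CPM in 53 wild-type cells, and one led by Igfbp3, Fabp4 and Ctla2a held 28 wild-type cells with 96.4 CPM and no Malat1-null cell. Without the first of these clusters the levels were 116 CPM in Malat1-null and 113 CPM in wild type, and the call was lost; this alternative was chosen after seeing the data. Pericyte markers (7 of 7 detected in both) summed to 245 CPM in Malat1-null and 155 CPM in wild-type endothelial-like cells, and to 338 CPM in Malat1-null and 412 CPM in wild type in the cluster led by Mgp. Their part in the level of Rgs5 was not tested.

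In mesenchymal-like cells Rgs5 stood at 162 CPM (122 to 211) in 17 Malat1-null cells and 1181 CPM (1077 to 1291) in 25 wild-type cells, and the class was not compared. The 3 highest cells held 83.3% of the UMIs in Malat1-null and 54.6% in wild type. Pericyte markers summed to 150 CPM in Malat1-null (5 of 7 detected, with Kcnj8 and Abcc9 at 0) and 850 CPM in wild type (7 of 7), and B cell markers to 9523 CPM in Malat1-null and 0 in wild type. Ductal-like cells had 342 CPM in 19 Malat1-null cells and 253 CPM in 134 wild-type cells. Pericyte markers were near 0 there, at 0 CPM in Malat1-null (0 of 7 detected) and 3.60 CPM in wild type (3 of 7), while beta markers stood at 173674 CPM in Malat1-null and 872 CPM in wild type (10 of 10 in both). T or NK-like, B cell-like and acinar-like cells had 0 Rgs5 UMIs in both libraries, which allows at most 5.63 CPM (Malat1-null acinar-like cells) in any of these sums. Free RNA held Rgs5 at 4.33 CPM in Malat1-null and 55.6 CPM in wild type.

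Rgs20, the regulator of Gz, had its highest levels in delta-like and alpha-like cells. Delta-like cells had 6.36 CPM in Malat1-null and 11.9 CPM in wild type, from 10 and 8 UMIs, a ratio of 0.534 (0.190 to 1.56). Alpha-like cells had 0 UMIs in 91 Malat1-null cells, which allows up to 1.57 CPM, and 11.7 CPM (5.82 to 20.9) from 11 UMIs in 8 of 35 wild-type cells. All 11 lay in the cluster that held 28 of the wild-type and 6 of the Malat1-null alpha-like cells.

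**Figure D4:**
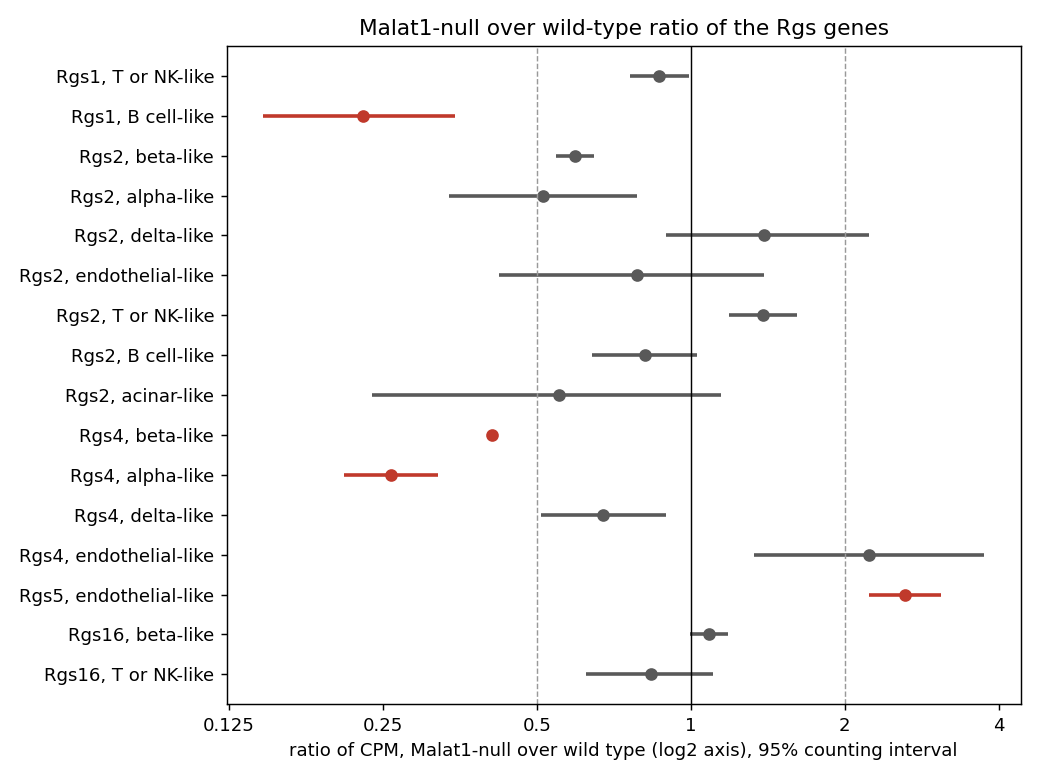
Ratio of CPM, Malat1-null over wild type (log2 axis), with 95% counting intervals, for each gene and class with at least 50 UMIs over both libraries. Red marks the 4 calls: Rgs1 in B cell-like cells (0.229), Rgs4 in beta-like (0.409) and alpha-like cells (0.260) and Rgs5 in endothelial-like cells (2.63), and the dashed lines mark 2-fold.

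Of the 21 Rgs genes, 16 reached 10 CPM in a class, 10 of them beside the 6 described. Delta-like cells held the called ones. Rgs17 stood there at 69.9 CPM in Malat1-null and 211 CPM in wild type, 3.02-fold lower (2.34 to 3.91), and Rgs9 at 72.5 CPM in Malat1-null and 165 CPM in wild type, 2.28-fold lower (1.74 to 2.98). Beta markers summed to 114037 CPM in Malat1-null (10 of 10 detected) and 55654 CPM in wild-type delta-like cells (8 of 10, with Mafa and Ucn3 at 0), and alpha markers to 18151 CPM in Malat1-null and 9717 CPM in wild type (7 of 7 in both). Delta markers summed to 79483 CPM in Malat1-null and 114182 CPM in wild type (6 of 6 in both), and the part of these in the 2 calls was not tested. In delta-like cells 0.826% of genes were called lower and 0.926% higher, and Rgs4 and Rgs2, the 2 members measured there, were not called. Rgs7 stood at 38.1 CPM in Malat1-null and 26.8 CPM in wild-type delta-like cells, and Rgs11 at 17.0 CPM in Malat1-null and 21.6 CPM in wild-type beta-like cells. In endothelial-like cells Rgs3 had 58.4 CPM in Malat1-null and 75.9 CPM in wild type, and Rgs12 reached 18.4 CPM. The others had their highest levels in immune cells. Rgs10 stood at 238 CPM in Malat1-null and 219 CPM in wild-type T or NK-like cells, where Rgs14 reached 14.6 CPM. In B cell-like cells Rgs19 had 42.7 CPM in Malat1-null and 42.9 CPM in wild type, and it also stood at 32.0 CPM in wild-type mesenchymal-like cells. Rgs13 had 2.62 CPM in Malat1-null and 27.2 CPM in wild-type B cell-like cells. In acinar-like cells 0 of the 6 members were measured, and 4.05% of genes were called higher and 17.9% lower. The median log2 ratio of measured genes was -0.61 there, against -0.01 to 0.07 in the other classes compared. Beta markers in acinar-like cells summed to 206897 CPM in Malat1-null and 25720 CPM in wild type, and their part in these shares was not tested.

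The level profile of each gene was compared with those of 6359 others over 18 sums of a class and library, as Pearson's r of log2(CPM + 10). These are descriptions over sums that share libraries. Among the genes most like Rgs4 were Serping1 (r = 0.885), the complement C1 inhibitor, and Scly (0.878). Rgs1 was most like Traf1 (0.979), a gene of TNF receptor signalling, then Bcl2a1b and Vsir. Rgs5 was most like Col18a1 (0.988), a basement membrane collagen, then Ccn2 and Fads3. Rgs2 was most like Myl12b (0.928), then Arrdc1 and Stat4, Rgs16 most like Fam189b (0.929), then Ikzf2 and Camk4, and Rgs20 most like Unc5c (0.837), then Olfm1 and Asph.

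The genes around RGS in the pathway were described in beta-like cells from 10 CPM in a library upward, while a call still needed 50 CPM. Of 6402 genes at 10 CPM, 1.95% had a ratio beyond 1.5-fold higher and 2.14% beyond 1.5-fold lower, with a median log2 ratio of 0.04. Of the 21 Rgs genes 7 reached 10 CPM, with a median of -0.45. Of these, 2 (Rgs4 and Rgs2) were lower beyond 1.5-fold, and Rgs4 alone had the 50 CPM for a call. Rgs17, the most abundant after Rgs4, stood at 25.5 CPM in Malat1-null and 37.2 CPM in wild type. Of the G alpha genes 9 of 12 reached 10 CPM (median 0.06), 5 could be called, and none passed 1.5-fold. Likewise none passed 1.5-fold among the G beta and gamma genes (7 of 15 at 10 CPM, median 0.01, 5 that could be called) or the effectors (14 of 28, 0.09, 2 that could be called). Of the receptors 11 of 39 reached 10 CPM (median 0.27), 2 passed 1.5-fold higher, and the 2 that could be called were not. Of the receptor kinase and arrestin genes 4 of 9 reached 10 CPM (median 0.06) and none had 50 CPM, so none could be called, and 1 of them, Arrdc3, passed 1.5-fold lower.

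The G alpha subunit Gnai2, an Rgs4 substrate of the Gi family, stood at 660 CPM in Malat1-null and 448 CPM in wild type, and Gnas, which activates adenylyl cyclase, at 548 CPM in Malat1-null and 555 CPM in wild type. The gamma subunit Gng5 stood at 304 CPM in Malat1-null and 299.6 CPM in wild type, and Gng12 at 223 CPM in Malat1-null and 222 CPM in wild type. The protein kinase A subunit Prkar1a had 242 CPM in Malat1-null and 287 CPM in wild type, and Prkacb 129 CPM in Malat1-null and 99.5 CPM in wild type. These 6 genes were within 1.5-fold of wild type. The incretin receptor Glp1r stood at 310.4 CPM in Malat1-null and 257 CPM in wild type, and the fatty acid receptor Ffar1 at 56.1 CPM in Malat1-null and 48.5 CPM in wild type. Gprasp1 had 48.1 CPM in Malat1-null and 48.0 CPM in wild type, and the receptor kinase Grk3 45.1 CPM in Malat1-null and 41.4 CPM in wild type. The receptors Galr1 (ratio 1.85, 1.65 to 2.06) and Adra2a (1.57, 1.49 to 1.66), which couple to Gi, were the 2 receptors past 1.5-fold; they and Arrdc3 were named after their values were seen.

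In the other lists 1 gene each was called lower in those induced by cAMP and CREB, by ChREBP and by hypoxia. Of the list induced by cAMP and CREB 7 of 12 genes reached 10 CPM (median 0.26), and 1 passed 1.5-fold. This was Fos, an immediate-early transcription factor, which stood at 52.4 CPM in Malat1-null and 155 CPM in wild type, 2.96-fold lower (2.85 to 3.06). Irs2 stood at 60.8 CPM in Malat1-null and 50.9 CPM in wild type. In the ChREBP list (5 of 6 at 10 CPM, median 0.06), 1 gene passed 1.5-fold lower and 1 higher. Txnip, an inhibitor of thioredoxin, stood at 52.3 CPM in Malat1-null and 108 CPM in wild type, 2.07-fold lower (1.99 to 2.15). Fasn was the higher one (ratio 1.51, 1.37 to 1.66) at under 50 CPM, and was named after its value was seen. Acly stood at 699 CPM in Malat1-null and 672 CPM in wild type. The hypoxia list had the lowest median of these lists: 7 of 9 genes reached 10 CPM with a median of -0.77, and 4 of the 7 were lower beyond 1.5-fold. As for all lists, the ratios were taken over all beta-like cells, whose clusters the libraries filled differently. The part of this in the ratios was not tested. Mif, a cytokine, stood at 163 CPM in Malat1-null and 428 CPM in wild type, 2.63-fold lower (2.58 to 2.69), and was the 1 called of 4 with 50 CPM. P4ha1 was 2.13-fold lower (2.00 to 2.27) at under 50 CPM, Bnip3 1.94-fold lower (1.87 to 2.02) and Ero1l 1.71-fold lower (1.63 to 1.79), and these 3 were named after their values were seen. Vegfa stood at 171 CPM in Malat1-null and 181 CPM in wild type. In the list of the N-degron pathway, which degrades Rgs4, Rgs5 and Rgs16 (6 of 7 at 10 CPM, median -0.02), none passed 1.5-fold, with Ubr4 at 147 CPM in Malat1-null and 158 CPM in wild type and Metap2 at 139 CPM in Malat1-null and 127 CPM in wild type.

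**Figure D5:**
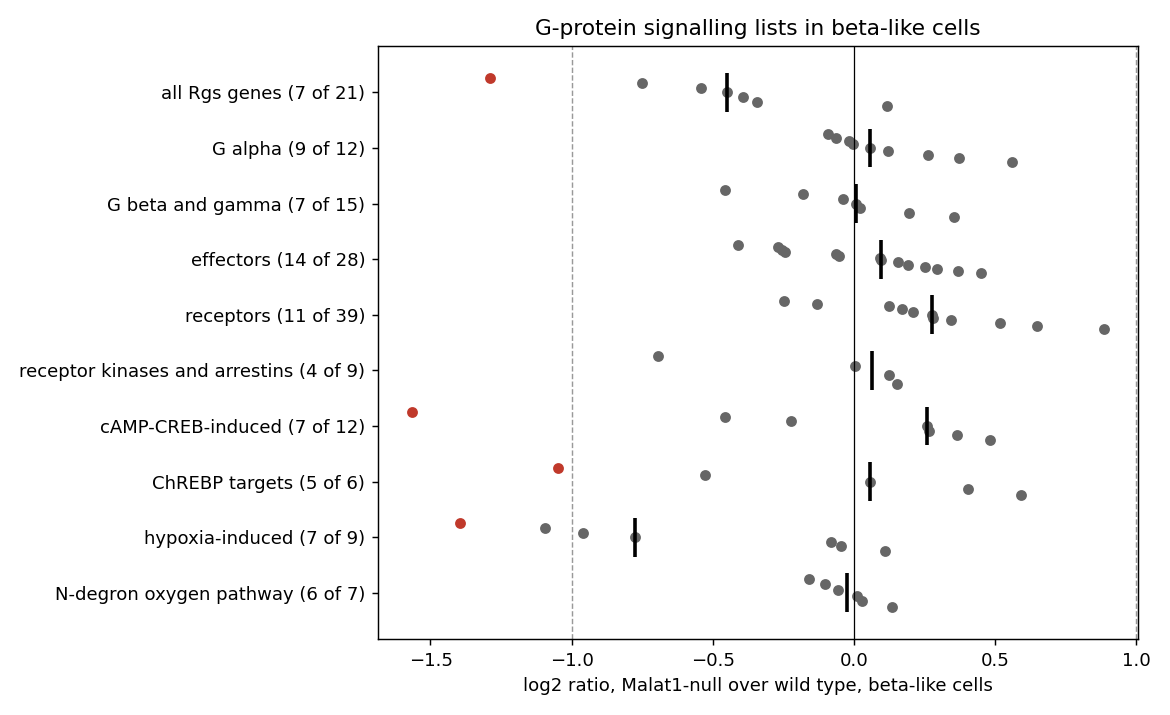
Log2 ratio, Malat1-null over wild type, of each measured gene of the G-protein lists in beta-like cells (points), with the list's median (black bar) and, in brackets, how many listed genes had at least 10 CPM. Red points are the 4 called genes, Rgs4, Fos, Txnip and Mif, all lower in Malat1-null cells, and dashed lines mark 2-fold.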

How the data were processed

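Islet cell suspensions were profiled with 10x Genomics single-cell sequencing, per the labels. The deposited matrices hold unnormalized UMI counts for every possible barcode, 6794880 in number. Per the file headers they were made with Cell Ranger 4, while the submitters' processing notes name Cell Ranger 2.1.0 and build mm10. The members and all gene lists were chosen with earlier results of these data known.

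Barcodes with at least 1000 UMIs were kept, and 7 Malat1-null and 23 wild-type doublets called by Scrublet were removed; how many remain is unknown. Cells of both libraries were clustered together (scanpy 1.11.5, 2000 variable genes without Rgs genes, Malat1, mitochondrial and sex-linked genes, 30 components, 15 neighbours, Leiden resolution 1). Clusters were named "X-like" from marker lists, at a score of at least 0.6 with 3 markers at 20 CPM; limits on mixed clusters were set after clusters were seen. Unnamed clusters held 541 Malat1-null and 136 wild-type cells. A cluster named erythroid-like (123 Malat1-null and 10 wild-type cells) had 84.8% and 47.0% mitochondrial UMIs and was not compared. Its erythroid markers summed to 0 CPM in Malat1-null (0 of 5 detected) and 475093 CPM in wild type (5 of 5). The name therefore does not describe the Malat1-null cells.

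UMIs were summed per class and library and scaled with TMM (edgeR 4.0.16, R 4.3.3). Intervals are exact Poisson (levels), exact conditional (ratios) and Clopper-Pearson (shares); the limit for 0 UMIs is 3 counts. Named genes were the 6 members, other Rgs genes reaching 10 CPM, the 3 most similar genes of each member (1 is not reported here), and list genes that were called or were the 2 most abundant of their list. Coordinates come from GENCODE M21.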

Additional observations from a re-analysis of the deposited data

Results flagged for a closer look

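Both results here were picked out because the ratio of Malat1-null to wild type lay above 1 in one cell class and below 1 in another, beyond the counting intervals. The difference between classes was not tested, since each genotype had 1 library.

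Rgs2 had a ratio of 0.594 in beta-like cells and 1.39 in T or NK-like cells. In beta-like cells acinar markers summed to 27.7 CPM in Malat1-null and 186 CPM in wild type (8 of 8 detected in both), and PP markers to 101 CPM in Malat1-null and 316 CPM in wild type (5 of 5 in both). Beta markers in T or NK-like cells stood at 22448 CPM in Malat1-null and 1979 CPM in wild type. Free RNA held Rgs2 at 15.3 CPM in Malat1-null and 25.5 CPM in wild type. The part of these in the ratios was not tested.

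Rgs4 had ratios of 0.409, 0.260 and 0.674 in beta-like, alpha-like and delta-like cells, and 2.23 (1.33 to 3.75) in endothelial-like cells, where it stood at 50.7 CPM in Malat1-null and 22.7 CPM in wild type. All 33 Malat1-null and 32 wild-type endothelial-like UMIs lay in the cluster led by Mgp, Igfbp5 and Esm1, and 3 wild-type cells held 100% of the wild-type ones. Beta markers summed to 6613 CPM in the Malat1-null and 168334 CPM in the wild-type cells of that cluster. The log2 ratio of 1.16 was -0.46 with doublets kept and 4.77 when classes were set per barcode by markers (31.4 CPM in Malat1-null and 0.797 CPM in wild type). The part of these values in the result was not tested.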

How the results depend on the processing

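No paired analysis was possible because each genotype had 1 library and no replicate to pair or leave out. Rgs4 was called lower in beta-like cells under all 8 alternatives (log2 ratio -1.48 to -1.16) and in alpha-like cells under all 8 (-1.94 to -1.69), and Rgs1 in B cell-like cells under all 6 (-2.57 to -1.97). Rgs5 in endothelial-like cells was called under 6 of 7 (0.06 to 1.39), the exception being without the cluster led by Mgp. That cluster, the Pdyn cluster and the Ghrl cluster were chosen for leaving out after seeing the data. Without it Rgs4 had 0 UMIs in endothelial-like cells and gave no value. Rgs16 in beta-like cells ranged from -0.07 (no TMM) to 0.26, and Rgs1 in T or NK-like cells from -0.99 (at least 5000 UMIs) to 0.17 (marker rule per barcode). Without TMM the median log2 ratio of all beta-like genes was -0.16, against 0.03. T or NK-like cells were not named at a UMI minimum of 0.1 of the 99th percentile, which gave no value. Rgs2 was called lower in alpha-like cells under 1 of 8 (marker rule per barcode, -1.29).

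Genes called higher in beta-like cells numbered 6, but 14 on CPM without hormone, mitochondrial and Malat1 UMIs, 14 at a minimum of 20 CPM and 121 with no CPM minimum. Genes called lower numbered 20, but 33, 35 and 274 under those settings. The number of members called in beta-like cells was 0 higher and 1 lower under every alternative run. Few cells (under 50 in a library) limit the ratios of alpha-like, delta-like, endothelial-like and acinar-like cells.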
